A study of Sus scrofa with 35 samples.

Results

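The transcripts described here are those encoded by the pig mitochondrial genome: 13 messenger RNAs for subunits of the respiratory chain and of ATP synthase, 2 ribosomal RNAs (rRNAs) and 22 transfer RNAs (tRNAs). They were taken from 4 deposited tables of TPM, a measure of transcript abundance scaled by transcript length and to one total per library, as every row whose gene symbol is one of those messengers or whose name is a position on the mitochondrial chromosome. This gave 37 of the 14673 rows found over all tables, and all 37 matched the mitochondrial genes that the pig annotation lists (Sscrofa11.1, chromosome MT). For OTX2 overexpression in pEPSCs, 36 of 13293 rows were mitochondrial, for the OTX2 knockout 35 of 12299, for LEUTX overexpression 36 of 12587 and for embryos 37 of 8643. The rows missing were both tRNAs, since the tRNA at MT:2206-2273, between the rRNAs, was listed in embryos only and the tRNA at MT:6203-6270 was not in the knockout table. The rule itself goes by gene name and position and uses no measured value.

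The study measured RNA in pig expanded potential stem cells (pEPSCs), a pluripotent cell type grown in culture, and in pig 4-cell embryos. The pEPSC groups used here were cells overexpressing OTX2, cells with OTX2 knocked out, cells overexpressing LEUTX and wild-type cells, and the embryo groups were 4-cell embryos overexpressing OTX2 and wild-type 4-cell embryos, with 3 libraries in each of the 6 groups. OTX2 and LEUTX are homeobox transcription factors, and LEUTX is known for its expression in the cleavage-stage embryo. Per the labels, pEPSC RNA was bulk TRIzol RNA and each embryo library pooled 10 embryos freed of the zona and was made with a modified Smart-seq2 protocol, with polyA RNA as the molecule in both. The knockout columns are numbered 1, 3 and 4 and share the prefix KO1, so they may come from a single line, and the labels give no clone, vector, promoter, dose or time for any group. Nothing in the labels says that the libraries of a group came from separate cultures or embryo collections, so the p-values below measure only the spread between libraries, which may be technical. The 3 pEPSC comparisons share the same wild-type libraries: all 108 wild-type member values set side by side were identical in every table that lists them, and the comparisons are therefore not independent of each other.

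Mitochondrial DNA is a small circle whose strands are each transcribed as long precursors by the polymerase POLRMT with TFAM and TFB2M, and most messengers and rRNAs are freed when the tRNAs lying between them are cut out. Most freed messengers and both rRNAs then receive short A tails, and their final levels depend on stability as well as on transcription. ND6 is the one messenger coded on the opposite strand, and the messengers ATP8 with ATP6, and ND4L with ND4, are known to stay joined as bicistronic RNAs. Early mammalian embryos replicate little of their mitochondrial DNA during the first cleavages and draw on the large stock of mitochondria laid down in the oocyte.

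The targeted genes were checked first. OTX2 stood at 9758, 8974 and 10819 TPM in OTX2-overexpressing pEPSCs, at 99.5, 130.1 and 114 TPM in knockout libraries 1, 3 and 4, at 0.131, 0.294 and 0.209 TPM in LEUTX-overexpressing pEPSCs, and at 258, 252 and 260.4 TPM in wild-type pEPSCs. The knockout libraries thus kept OTX2 RNA at a reduced level, and the LEUTX-overexpressing libraries had less of it than the knockout libraries. LEUTX stood at 3171, 3187 and 3073 TPM in LEUTX-overexpressing pEPSCs and was listed at 0 in wild-type pEPSCs. In embryos OTX2 stood at 8276, 9001 and 10565 TPM with overexpression, against 327, 283 and 321 TPM in wild type. LEUTX averaged 35.5 TPM (SD 39.2) in OTX2-overexpressing and 505 TPM (SD 145) in wild-type embryos (log2 fold change -4.29, limma adjusted p = 0.00323). The overexpressing embryo libraries thus differed widely in LEUTX, and all lay below all wild-type libraries. All 8 pluripotency markers checked were present in every pEPSC table, with summed levels of 2412 to 2719 TPM in OTX2-overexpressing, 3639 to 6684 TPM in knockout, 3117 to 3201 TPM in LEUTX-overexpressing and 5279 to 5736 TPM in wild-type cells. All 9 oocyte and cleavage markers were present in embryos at 1881 to 2236 TPM with overexpression and 1348 to 1791 TPM in wild type. Of the 8 fibroblast and feeder markers, the same 3 (COL1A1, COL1A2 and THY1) were in every pEPSC table, where they summed to 32.3 to 34.995 TPM in OTX2-overexpressing, 22.3 to 43.6 TPM in knockout, 3.27 to 5.07 TPM in LEUTX-overexpressing and 8.94 to 11.8 TPM in wild-type cells. In the embryo table COL1A2 alone was listed, at 0.844 to 1.44 TPM with overexpression and 0.843 to 1.01 TPM in wild type, and the part of these markers in the results below was not tested. The TPM columns summed to between 997004 and 998040, and the read depth behind them is unknown. Knockout library 1 stood apart from knockout libraries 3 and 4 on most mitochondrial rows, so the knockout columns are given one by one.

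The mitochondrial transcripts took 9.02%, 9.38% and 10.1% of library TPM in OTX2-overexpressing pEPSCs, 22.4%, 10.2% and 10.3% in knockout libraries 1, 3 and 4, 15.96%, 15.9% and 16.1% in LEUTX-overexpressing pEPSCs, and 15.7%, 15.4% and 14.5% in wild-type pEPSCs. In embryos they took 51.4%, 51.4% and 51.9% with OTX2 overexpression and 55.7%, 57.2% and 57.7% in wild type, so more than the whole nuclear transcriptome in TPM. Every OTX2-overexpressing library lay below every wild-type library in both systems, every LEUTX-overexpressing pEPSC library lay above them, and the knockout libraries lay on both sides. The mean share in OTX2-overexpressing pEPSCs was 0.624 times that in wild-type pEPSCs, and the mean share in OTX2-overexpressing embryos was 0.908 times that in wild-type embryos. The exact two-sided permutation p was 0.1 for both OTX2 overexpression comparisons and for LEUTX overexpression, which is the smallest p that 3 libraries against 3 can give, and it was 1 for the knockout. In these bulk samples fewer mitochondria, fewer transcripts per mitochondrion and more nuclear RNA per cell cannot be told apart, and neither can fewer cells of a type and less RNA per cell.

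**Figure D1:**
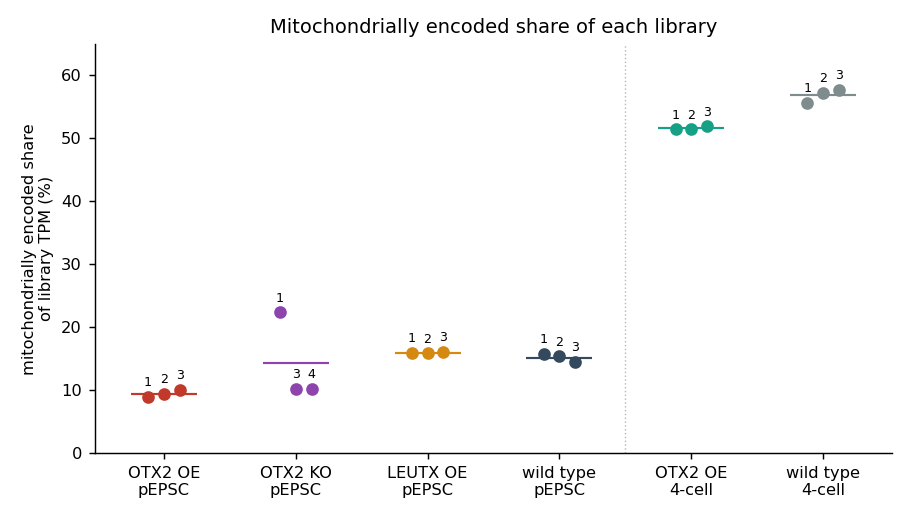
Share of library TPM (percent, y axis) taken by the mitochondrially encoded rows in each library, by group along the x axis; each point is 1 library and the bar is the group mean. The 3 OTX2-overexpressing pEPSC libraries sit between 9.02% and 10.1%, knockout library 1 sits at 22.4% above libraries 3 and 4, and the embryo libraries sit between 51.4% and 57.7%.

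The messengers held most of the mitochondrial total, the tRNA rows a smaller part and the rRNAs well under 1%. The labels give polyA RNA as the molecule, and how fully rRNAs and tRNAs were captured is not known. These shares, and the rRNA and tRNA values below, therefore describe the captured RNA and not the whole pool in the cells. The tRNA rows took 8.79%, 9.09% and 8.96% of mitochondrial TPM in OTX2-overexpressing pEPSCs, 8.72%, 9.08% and 8.66% in knockout libraries 1, 3 and 4, 6.74%, 6.63% and 6.59% in LEUTX-overexpressing pEPSCs and 6.32%, 5.44% and 6.34% in wild-type pEPSCs. All libraries of the 3 manipulated pEPSC groups lay above all wild-type libraries on this share, knockout library 1 included (exact permutation p = 0.1 each, the smallest possible). In embryos the tRNA share was 18.8%, 14.1% and 14.5% with OTX2 overexpression and 16.1%, 17.6% and 18.3% in wild type, and the groups overlapped (exact permutation p = 0.4). TPM divides by transcript length, and the tRNA rows are 59 to 75 bases long, so a few reads weigh heavily there. By the mean normalized count in the authors' deposited tables, which does not divide by length, the tRNA rows took 3.17% of the mitochondrial total in the OTX2 overexpression table, 3.42% in the knockout table, 2.99% in the LEUTX table and 3.95% in the embryo table, and all mitochondrial rows together took 5.41%, 6.72%, 6.49% and 31.2% of the total of those tables. Reads over so short a row can also belong to a longer RNA that crosses it, and which of these the reads were cannot be told apart here.

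The order of the messengers differed between the groups. In OTX2-overexpressing pEPSCs COX3 was the most abundant messenger by mean TPM, followed by ATP6 and COX1, whose library ranges overlapped, then COX2, CYTB, ND4 and ND4L, then ATP8, ND5, ND2 and ND1 with overlapping ranges, then ND3 and last ND6. In LEUTX-overexpressing pEPSCs the order was COX2, ATP8, ATP6, COX1, COX3, ND4L, CYTB, then ND4 and ND2 with overlapping ranges, then ND5, then ND6 and ND1 with overlapping ranges, and last ND3. In wild-type pEPSCs ATP6 led, ATP8, COX1 and COX2 followed with overlapping ranges, and COX3, ND4L, ND2 with ND4, then CYTB, ND5, ND6 and ND1 with overlapping ranges, and last ND3 completed the order. ATP8, the messenger next after ATP6 in the order of wild-type pEPSCs, thus stood below all 3 cytochrome oxidase messengers, CYTB, ND4 and ND4L in OTX2-overexpressing pEPSCs. In embryos COX1 and COX2 led in both groups with overlapping ranges, ATP6 came next, and ND4L and COX3 followed with overlapping ranges. The end of the embryo order was ND3, ND5 and ND6 with OTX2 overexpression, and ND5, ND3 and ND6 with overlapping ranges in wild type. The knockout libraries gave no order beyond their spread for most neighbours, and library 1 lay far from the others.

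**Figure D2:**
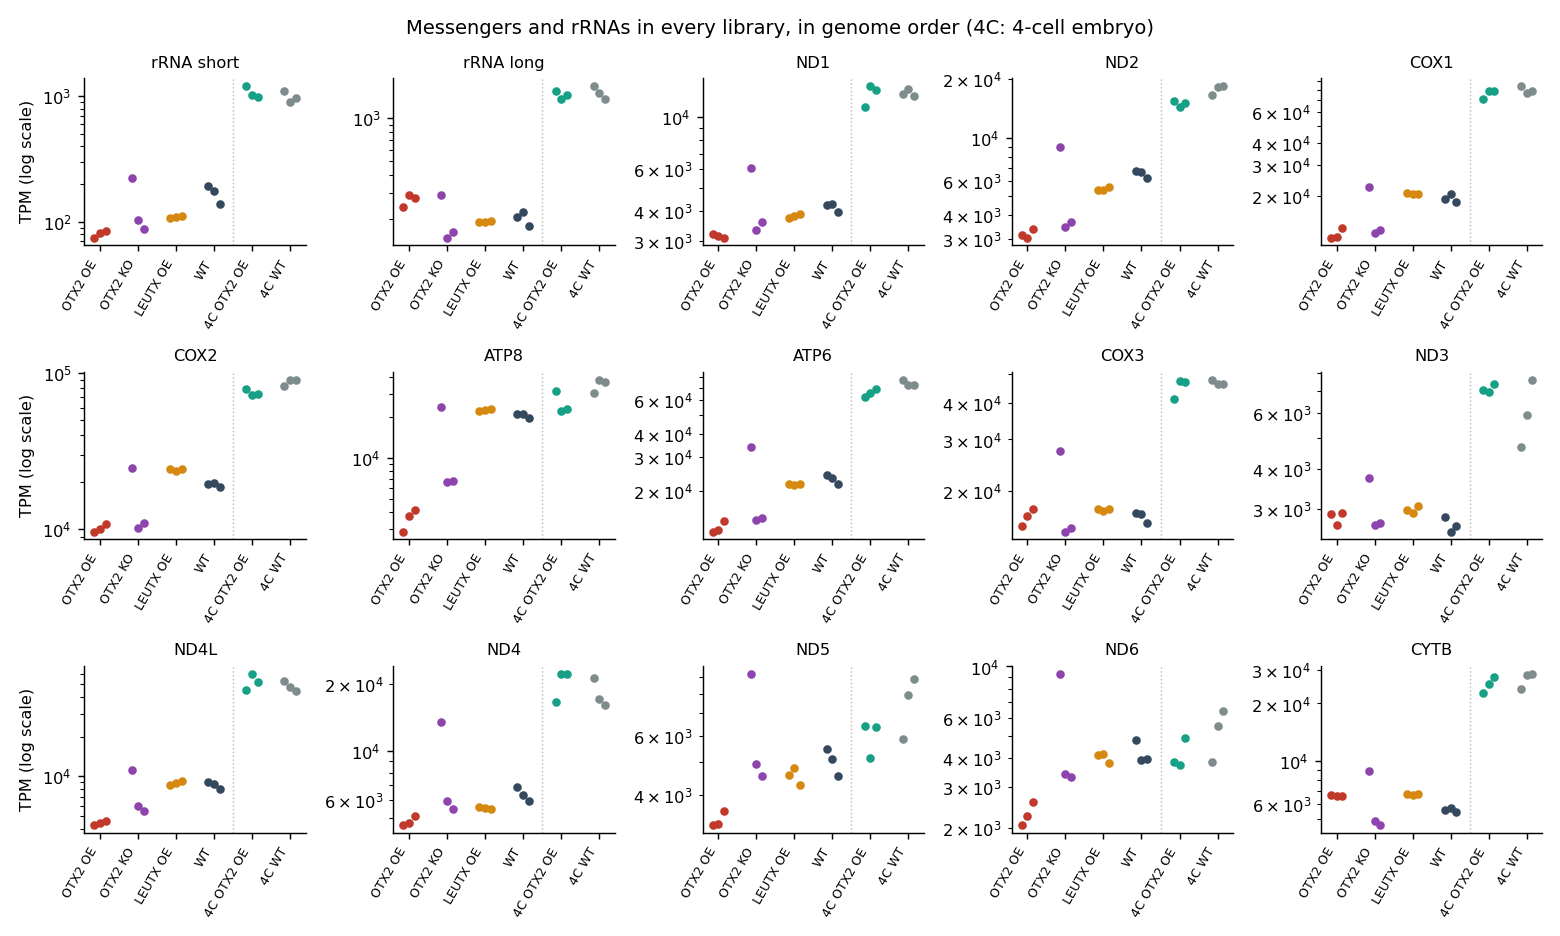
TPM (log axis) of the 13 messengers and 2 rRNAs, in the order of the genome, for each library of the 6 groups; points are libraries. ATP8 sits between 2861 and 4114 TPM in OTX2-overexpressing pEPSCs and between 19785 and 21334 TPM in wild-type pEPSCs, while COX3 overlaps between them.

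The share of each transcript in the mitochondrial total shows the make-up of the captured pool apart from its size. The share of library TPM shows both together. The shares below are means ± SD over 3 libraries, except for the knockout, where the values are those of libraries 1, 3 and 4 in that order. ATP synthase, complex V, has 2 mitochondrially encoded subunits, both in its membrane part: ATP6 forms the proton path beside the rotating ring, and ATP8 is a short stalk protein. ATP8 made up 3.75% ± 0.50 of mitochondrial TPM in OTX2-overexpressing, 10.7%, 6.52% and 6.63% in knockout, 14.2% ± 0.21 in LEUTX-overexpressing and 13.7% ± 0.12 in wild-type pEPSCs. In embryos, ATP8 made up 4.96% ± 0.95 of it with OTX2 overexpression and 6.13% ± 0.63 in wild type. The LEUTX-overexpressing libraries all lay above every wild-type library, the OTX2-overexpressing pEPSC and knockout libraries all lay below every wild-type library, and the OTX2-overexpressing embryo libraries overlapped wild type, as to the share of ATP8. ATP8 took 0.357% ± 0.064 of library TPM in OTX2-overexpressing, 2.396%, 0.666% and 0.682% in knockout, 2.27% ± 0.040 in LEUTX-overexpressing and 2.08% ± 0.087 in wild-type pEPSCs. ATP8 took 2.56% ± 0.48 of it in OTX2-overexpressing embryos and 3.49% ± 0.41 in wild-type embryos. The share of ATP6 in mitochondrial TPM was 13.5% ± 0.25 in OTX2-overexpressing, 15.3%, 13.7% and 14% in knockout, 13.6% ± 0.10 in LEUTX-overexpressing and 15.2% ± 0.15 in wild-type pEPSCs. The embryo shares of ATP6 were 12.8% ± 0.57 with OTX2 overexpression and 13.05% ± 0.71 in wild type. The OTX2-overexpressing pEPSC and LEUTX-overexpressing libraries all lay below every wild-type library, and the knockout and OTX2-overexpressing embryo libraries overlapped wild type in this share of ATP6. ATP6 had a library share of 1.29% ± 0.091 in OTX2-overexpressing, 3.43%, 1.4% and 1.44% in knockout, 2.17% ± 0.026 in LEUTX-overexpressing and 2.32% ± 0.12 in wild-type pEPSCs. In OTX2-overexpressing embryos ATP6 had a library share of 6.62% ± 0.32, and in wild-type embryos 7.41% ± 0.27.

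Cytochrome c oxidase, complex IV, passes electrons to oxygen, and its catalytic core is COX1, which holds the haem groups, COX2, which takes electrons from cytochrome c, and COX3, which braces the core. Of all mitochondrial TPM, COX1 held 12.9% ± 0.26 in OTX2-overexpressing, 10.05%, 12.1% and 12.5% in knockout, 13.02% ± 0.13 in LEUTX-overexpressing and 12.8% ± 0.56 in wild-type pEPSCs. OTX2-overexpressing embryos had 14.8% ± 0.82 and wild-type embryos 14.2% ± 0.88 of it as COX1. The OTX2-overexpressing pEPSC, knockout, LEUTX-overexpressing and OTX2-overexpressing embryo libraries overlapped wild type, as to the share of COX1. COX1 took 1.22% ± 0.086 of library TPM in OTX2-overexpressing, 2.25%, 1.24% and 1.29% in knockout, 2.08% ± 0.011 in LEUTX-overexpressing and 1.95% ± 0.11 in wild-type pEPSCs. COX1 took 7.65% ± 0.44 of it in OTX2-overexpressing embryos and 8.06% ± 0.36 in wild-type embryos. COX2 made up 10.8% ± 0.022 of mitochondrial TPM in OTX2-overexpressing, 11.03%, 9.998% and 10.7% in knockout, 15.1% ± 0.17 in LEUTX-overexpressing and 12.7% ± 0.24 in wild-type pEPSCs. In embryos, COX2 made up 14.5% ± 0.71 of it with OTX2 overexpression and 15.4% ± 0.54 in wild type. The LEUTX-overexpressing libraries all lay above every wild-type library, the OTX2-overexpressing pEPSC and knockout libraries all lay below every wild-type library, and the OTX2-overexpressing embryo libraries overlapped wild type in this share of COX2. COX2 had a library share of 1.02% ± 0.060 in OTX2-overexpressing, 2.47%, 1.02% and 1.103% in knockout, 2.41% ± 0.039 in LEUTX-overexpressing and 1.94% ± 0.052 in wild-type pEPSCs. In OTX2-overexpressing embryos COX2 had a library share of 7.51% ± 0.35, and in wild-type embryos 8.76% ± 0.46. The share of COX3 in mitochondrial TPM was 17.3% ± 0.31 in OTX2-overexpressing, 12.3%, 14.3% and 14.6% in knockout, 10.9% ± 0.058 in LEUTX-overexpressing and 10.8% ± 0.091 in wild-type pEPSCs. The embryo shares of COX3 were 8.797% ± 0.64 with OTX2 overexpression and 8.25% ± 0.32 in wild type. The OTX2-overexpressing pEPSC and knockout libraries all lay above every wild-type library, and the LEUTX-overexpressing and OTX2-overexpressing embryo libraries overlapped wild type, as to the share of COX3. COX3 took 1.64% ± 0.11 of library TPM in OTX2-overexpressing, 2.75%, 1.46% and 1.501% in knockout, 1.74% ± 0.017 in LEUTX-overexpressing and 1.64% ± 0.070 in wild-type pEPSCs. COX3 took 4.54% ± 0.34 of it in OTX2-overexpressing embryos and 4.69% ± 0.098 in wild-type embryos. CYTB is the one mitochondrially encoded subunit of complex III, which moves electrons from ubiquinol to cytochrome c. Of all mitochondrial TPM, CYTB held 7.0% ± 0.46 in OTX2-overexpressing, 3.95%, 4.77% and 4.5% in knockout, 4.21% ± 0.016 in LEUTX-overexpressing and 3.67% ± 0.13 in wild-type pEPSCs. OTX2-overexpressing embryos had 4.89% ± 0.43 and wild-type embryos 4.74% ± 0.40 of it as CYTB. The OTX2-overexpressing pEPSC, knockout and LEUTX-overexpressing libraries all lay above every wild-type library, and the OTX2-overexpressing embryo libraries overlapped wild type in this share of CYTB. CYTB had a library share of 0.663% ± 0.0073 in OTX2-overexpressing, 0.885%, 0.487% and 0.463% in knockout, 0.672% ± 0.0050 in LEUTX-overexpressing and 0.558% ± 0.014 in wild-type pEPSCs. In OTX2-overexpressing embryos CYTB had a library share of 2.52% ± 0.23, and in wild-type embryos 2.696% ± 0.27.

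Complex I takes electrons from NADH, and its 7 mitochondrially encoded subunits build the proton-pumping membrane arm. ND1 lies where the membrane arm meets the arm that carries the electron path. ND1 made up 3.34% ± 0.25 of mitochondrial TPM in OTX2-overexpressing, 2.71%, 3.26% and 3.52% in knockout, 2.39% ± 0.035 in LEUTX-overexpressing and 2.75% ± 0.044 in wild-type pEPSCs. In embryos, ND1 made up 2.43% ± 0.25 of it with OTX2 overexpression and 2.23% ± 0.085 in wild type. The OTX2-overexpressing pEPSC libraries all lay above every wild-type library, the LEUTX-overexpressing libraries all lay below every wild-type library, and the knockout and OTX2-overexpressing embryo libraries overlapped wild type, as to the share of ND1. ND1 took 0.316% ± 0.0066 of library TPM in OTX2-overexpressing, 0.607%, 0.332% and 0.362% in knockout, 0.382% ± 0.0069 in LEUTX-overexpressing and 0.419% ± 0.018 in wild-type pEPSCs. ND1 took 1.25% ± 0.13 of it in OTX2-overexpressing embryos and 1.26% ± 0.042 in wild-type embryos. ND2, ND4 and ND5 are the large antiporter-like subunits. The share of ND2 in mitochondrial TPM was 3.38% ± 0.13 in OTX2-overexpressing, 4.03%, 3.42% and 3.61% in knockout, 3.42% ± 0.050 in LEUTX-overexpressing and 4.3% ± 0.027 in wild-type pEPSCs. The embryo shares of ND2 were 2.91% ± 0.11 with OTX2 overexpression and 3.13% ± 0.13 in wild type. The OTX2-overexpressing pEPSC, knockout and LEUTX-overexpressing libraries all lay below every wild-type library, and the OTX2-overexpressing embryo libraries overlapped wild type in this share of ND2. ND2 had a library share of 0.321% ± 0.017 in OTX2-overexpressing, 0.901%, 0.349% and 0.372% in knockout, 0.546% ± 0.011 in LEUTX-overexpressing and 0.654% ± 0.029 in wild-type pEPSCs. In OTX2-overexpressing embryos ND2 had a library share of 1.501% ± 0.054, and in wild-type embryos 1.78% ± 0.10. Of all mitochondrial TPM, ND4 held 5.097% ± 0.047 in OTX2-overexpressing, 6.04%, 5.86% and 5.33% in knockout, 3.47% ± 0.046 in LEUTX-overexpressing and 4.198% ± 0.15 in wild-type pEPSCs. OTX2-overexpressing embryos had 3.96% ± 0.63 and wild-type embryos 3.21% ± 0.55 of it as ND4. The OTX2-overexpressing pEPSC and knockout libraries all lay above every wild-type library, the LEUTX-overexpressing libraries all lay below every wild-type library, and the OTX2-overexpressing embryo libraries overlapped wild type, as to the share of ND4. ND4 took 0.484% ± 0.023 of library TPM in OTX2-overexpressing, 1.35%, 0.598% and 0.549% in knockout, 0.554% ± 0.0051 in LEUTX-overexpressing and 0.639% ± 0.047 in wild-type pEPSCs. ND4 took 2.04% ± 0.33 of it in OTX2-overexpressing embryos and 1.82% ± 0.27 in wild-type embryos. ND5 made up 3.54% ± 0.057 of mitochondrial TPM in OTX2-overexpressing, 4.12%, 4.86% and 4.43% in knockout, 2.86% ± 0.18 in LEUTX-overexpressing and 3.32% ± 0.17 in wild-type pEPSCs. In embryos, ND5 made up 1.16% ± 0.14 of it with OTX2 overexpression and 1.33% ± 0.25 in wild type. The OTX2-overexpressing pEPSC and knockout libraries all lay above every wild-type library, the LEUTX-overexpressing libraries all lay below every wild-type library, and the OTX2-overexpressing embryo libraries overlapped wild type in this share of ND5. ND5 had a library share of 0.336% ± 0.018 in OTX2-overexpressing, 0.921%, 0.496% and 0.456% in knockout, 0.456% ± 0.026 in LEUTX-overexpressing and 0.505% ± 0.046 in wild-type pEPSCs. In OTX2-overexpressing embryos ND5 had a library share of 0.598% ± 0.073, and in wild-type embryos 0.757% ± 0.16.

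The remaining complex I subunits, ND3, ND4L and ND6, are small proteins at the base of the membrane arm. The share of ND3 in mitochondrial TPM was 2.98% ± 0.20 in OTX2-overexpressing, 1.68%, 2.62% and 2.64% in knockout, 1.87% ± 0.037 in LEUTX-overexpressing and 1.76% ± 0.093 in wild-type pEPSCs. The embryo shares of ND3 were 1.39% ± 0.036 with OTX2 overexpression and 1.07% ± 0.24 in wild type. The OTX2-overexpressing pEPSC, LEUTX-overexpressing and OTX2-overexpressing embryo libraries all lay above every wild-type library, and the knockout libraries overlapped wild type, as to the share of ND3. ND3 took 0.283% ± 0.014 of library TPM in OTX2-overexpressing, 0.375%, 0.268% and 0.271% in knockout, 0.299% ± 0.0076 in LEUTX-overexpressing and 0.268% ± 0.014 in wild-type pEPSCs. ND3 took 0.716% ± 0.022 of it in OTX2-overexpressing embryos and 0.609% ± 0.15 in wild-type embryos. Of all mitochondrial TPM, ND4L held 4.67% ± 0.12 in OTX2-overexpressing, 4.98%, 5.84% and 5.36% in knockout, 5.57% ± 0.17 in LEUTX-overexpressing and 5.69% ± 0.10 in wild-type pEPSCs. OTX2-overexpressing embryos had 10.2% ± 1.5 and wild-type embryos 8.58% ± 0.94 of it as ND4L. The OTX2-overexpressing pEPSC libraries all lay below every wild-type library, and the knockout, LEUTX-overexpressing and OTX2-overexpressing embryo libraries overlapped wild type in this share of ND4L. ND4L had a library share of 0.443% ± 0.016 in OTX2-overexpressing, 1.11%, 0.596% and 0.551% in knockout, 0.889% ± 0.029 in LEUTX-overexpressing and 0.866% ± 0.052 in wild-type pEPSCs. In OTX2-overexpressing embryos ND4L had a library share of 5.28% ± 0.75, and in wild-type embryos 4.87% ± 0.44. ND6 made up 2.42% ± 0.15 of mitochondrial TPM in OTX2-overexpressing, 4.17%, 3.37% and 3.24% in knockout, 2.54% ± 0.14 in LEUTX-overexpressing and 2.79% ± 0.24 in wild-type pEPSCs. In embryos, ND6 made up 0.811% ± 0.12 of it with OTX2 overexpression and 0.928% ± 0.21 in wild type. The knockout libraries all lay above every wild-type library, and the OTX2-overexpressing pEPSC, LEUTX-overexpressing and OTX2-overexpressing embryo libraries overlapped wild type, as to the share of ND6. ND6 took 0.231% ± 0.028 of library TPM in OTX2-overexpressing, 0.933%, 0.344% and 0.333% in knockout, 0.405% ± 0.020 in LEUTX-overexpressing and 0.425% ± 0.048 in wild-type pEPSCs. ND6 took 0.418% ± 0.063 of it in OTX2-overexpressing embryos and 0.529% ± 0.13 in wild-type embryos.

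The rRNAs form the cores of the small and the large subunit of the mitochondrial ribosome, and are encoded side by side at MT:1246-2205 (960 bases) and MT:2274-3844 (1571 bases). The share of the shorter rRNA in mitochondrial TPM was 0.0846% ± 0.0023 in OTX2-overexpressing, 0.1003%, 0.102% and 0.0859% in knockout, 0.0686% ± 0.0013 in LEUTX-overexpressing and 0.111% ± 0.014 in wild-type pEPSCs. The embryo shares of the shorter rRNA were 0.2097% ± 0.023 with OTX2 overexpression and 0.175% ± 0.022 in wild type. The OTX2-overexpressing pEPSC and LEUTX-overexpressing libraries all lay below every wild-type library, and the knockout and OTX2-overexpressing embryo libraries overlapped wild type in this share of the shorter rRNA. The shorter rRNA had a library share of 0.00803% ± 0.00051 in OTX2-overexpressing, 0.0224%, 0.0105% and 0.00883% in knockout, 0.01095% ± 0.00022 in LEUTX-overexpressing and 0.01699% ± 0.0029 in wild-type pEPSCs. In OTX2-overexpressing embryos the shorter rRNA had a library share of 0.108% ± 0.011, and in wild-type embryos 0.0994% ± 0.011. Of all mitochondrial TPM, the longer rRNA held 0.286% ± 0.023 in OTX2-overexpressing, 0.131%, 0.145% and 0.158% in knockout, 0.1199% ± 0.00036 in LEUTX-overexpressing and 0.133% ± 0.010 in wild-type pEPSCs. OTX2-overexpressing embryos had 0.281% ± 0.017 and wild-type embryos 0.265% ± 0.032 of it as the longer rRNA. The OTX2-overexpressing pEPSC libraries all lay above every wild-type library, the LEUTX-overexpressing libraries all lay below every wild-type library, and the knockout and OTX2-overexpressing embryo libraries overlapped wild type, as to the share of the longer rRNA. The longer rRNA took 0.0272% ± 0.0026 of library TPM in OTX2-overexpressing, 0.0294%, 0.0148% and 0.0163% in knockout, 0.0191% ± 0.00016 in LEUTX-overexpressing and 0.0203% ± 0.0022 in wild-type pEPSCs. The longer rRNA took 0.145% ± 0.0086 of it in OTX2-overexpressing embryos and 0.1503% ± 0.016 in wild-type embryos. By level, the ratio of the longer to the shorter rRNA was 3.24, 3.57 and 3.31 in OTX2-overexpressing pEPSCs, 1.31, 1.41 and 1.84 in knockout libraries 1, 3 and 4, 1.78, 1.73 and 1.74 in LEUTX-overexpressing pEPSCs and 1.06, 1.26 and 1.297 in wild-type pEPSCs. Every library of the 3 manipulated pEPSC groups lay above every wild-type library on this ratio, by the widest margin in OTX2-overexpressing cells (exact permutation p = 0.1 each, the smallest possible). In embryos the ratio was 1.27, 1.32 and 1.44 with OTX2 overexpression and 1.51, 1.66 and 1.39 in wild type, with overlap (exact permutation p = 0.2).

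The tRNA rows differed widely in level. The tRNA at MT:8059-8129, which starts 3 bases after the end of COX1, had the highest mean TPM of the tRNA rows in all 6 groups. It stood at 3612, 3799.8 and 4121 TPM in OTX2-overexpressing pEPSCs, 8645, 3853 and 3599 TPM in knockout libraries 1, 3 and 4, 4028, 3852 and 3914 TPM in LEUTX-overexpressing pEPSCs and 3344, 3161 and 3152 TPM in wild-type pEPSCs. In embryos it stood at 36913, 41981 and 41758 TPM with OTX2 overexpression and 45526, 43642 and 40209 TPM in wild type. It was called higher with OTX2 overexpression in pEPSCs (log2 fold change 0.25, SE 0.047, adjusted p = 0.000531) and with LEUTX overexpression (log2 fold change 0.29, SE 0.031, adjusted p = 3.41e-05). The authors' deposited table gives it a log2 fold change of -0.23 with OTX2 overexpression (the authors' adjusted p = 0.00179). For LEUTX overexpression it gives 0.080 (the authors' adjusted p = 0.197). The sign with OTX2 overexpression thus depends on the processing. The tRNA at MT:8891-8957, between COX2 and ATP8, came next in embryos, and the tRNA at MT:3845-3919, between the longer rRNA and ND1, came next in all 4 pEPSC groups. The lowest rows averaged 2.76 TPM in OTX2-overexpressing, 1.797 TPM in knockout, 3.499 TPM in LEUTX-overexpressing and 0.799 TPM in wild-type pEPSCs, against 183 TPM in OTX2-overexpressing and 215 TPM in wild-type embryos. The 5 tRNAs between ND2 and COX1 summed to 51.3, 53.5 and 43.8 TPM in OTX2-overexpressing pEPSCs, 22.4, 23.1 and 20.2 TPM in LEUTX-overexpressing pEPSCs and 9.89, 10.6 and 11.7 TPM in wild-type pEPSCs, and the 4 of them in the knockout table to 18.9, 22.3 and 6.37 TPM in knockout libraries 1, 3 and 4. The same 5 summed to 3322, 1079 and 1137 TPM in OTX2-overexpressing embryos and 1639, 3241 and 3149 TPM in wild-type embryos. This cluster was thus low in all pEPSC groups and higher in OTX2- and LEUTX-overexpressing than in wild-type pEPSC libraries without overlap. The 3 tRNAs between ND1 and ND2 summed to 467, 410.1 and 482 TPM in OTX2-overexpressing pEPSCs, 627, 310.03 and 317 TPM in knockout libraries 1, 3 and 4, 462, 451 and 463 TPM in LEUTX-overexpressing pEPSCs and 274, 253 and 238 TPM in wild-type pEPSCs, with no overlap between any manipulated group and wild type. The 3 tRNAs between ND4 and ND5 summed to 668, 1011 and 857 TPM in OTX2-overexpressing pEPSCs, 2700.0, 1614 and 1510.2 TPM in the knockout libraries, 1853, 1893 and 1784 TPM in LEUTX-overexpressing pEPSCs and 2273, 1166 and 1990.3 TPM in wild-type pEPSCs, lower with OTX2 overexpression without overlap.

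OTX2 overexpression against wild type in pEPSCs asks how the mitochondrial transcripts stand in cells with excess OTX2. Of the 13 messengers, 10 fell, CYTB rose, and ND3 and COX3 did not pass the test. The lower messengers included both ATP synthase subunits, with ATP8 far below the rest, COX1 and COX2 of complex IV and 6 of the 7 complex I subunits. The rRNAs moved apart, with the shorter lower and the longer higher, and 14 of 21 tRNA rows rose while 4 fell. Over all 36 rows tested, 16 rose, 15 fell and 5 did not pass, where 48.9% of the 13272 rows tested were called higher and 33.5% lower, so that calls as such were common. Every overexpressing library lay above every wild-type library for 17 of the 36 rows and below for 15, where 49.1% and 34.2% of all rows did so. The median log2 fold change was 0.16 over the mitochondrial rows and -0.67 over the messengers, against 0.20 over all rows (limma on log2(TPM + 1), Benjamini-Hochberg adjusted over all rows, called at 0.05).

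ATP8 stood at 2861, 3715 and 4114 TPM in OTX2-overexpressing cells, against 21334, 21233 and 19785 TPM in wild-type cells. All overexpressing libraries were far below all wild-type libraries. The fall was the largest of any member (log2 fold change -2.56, SE 0.13, adjusted p = 3.78e-06), and the authors' deposited table gives a log2 fold change of -2.101. ATP6 stood at 12182, 12424 and 13856 TPM in overexpressing cells, against 24170.0, 23309.7 and 21840.1 TPM in wild-type cells, again without overlap (log2 fold change -0.85, SE 0.052, adjusted p = 2.71e-07). The ratio of ATP8 to ATP6 was therefore 0.235, 0.299 and 0.297 in overexpressing cells and 0.883, 0.911 and 0.906 in wild-type cells (exact permutation p = 0.1, the smallest possible). The authors' deposited table gives ATP6 a log2 fold change of -1.28, so its gap to ATP8 is narrower there than in TPM. The annotated messengers share 43 bases, so reads in the overlap cannot be assigned to one of them, and the ratio describes the deposited values only. Next to them, the tRNA at MT:8891-8957, directly between COX2 and ATP8, stood at 175, 183 and 228 TPM in overexpressing cells and 866, 852 and 757 TPM in wild-type cells (log2 fold change -2.08, SE 0.095, adjusted p = 6.29e-08). From COX2 to ATP6, 4 rows in a row along the genome were thus called lower.

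COX2 stood at 9676, 10069 and 10856 TPM in OTX2-overexpressing cells, against 19589, 19641 and 18719.7 TPM in wild-type cells (log2 fold change -0.92, SE 0.040, adjusted p = 1.53e-08). COX1 stood at 11623, 11798 and 13196 TPM in overexpressing cells, against 19286, 20575 and 18443 TPM in wild-type cells (log2 fold change -0.67, SE 0.053, adjusted p = 1.63e-06), and neither messenger overlapped between the groups. COX3, the next messenger after ATP6, did not share this difference: it stood at 15272, 16461 and 17412 TPM in overexpressing cells and 16850.5, 16751 and 15593 TPM in wild-type cells, and the groups overlapped (log2 fold change -0.0027, SE 0.047, adjusted p = 0.961). CYTB stood at 6690.2, 6593 and 6547 TPM in overexpressing cells, against 5543, 5715 and 5447 TPM in wild-type cells. It was the one messenger called higher (log2 fold change 0.25, SE 0.028, adjusted p = 1.13e-05), and that call depends on the processing. Under median-ratio scaling CYTB had a log2 fold change of 0.054 (limma adjusted p = 0.432), in the fit over 12 pEPSC libraries its adjusted p was 0.233, and the authors' deposited table gives it a log2 fold change of 0.026 (adjusted p = 0.711). As a share of messenger TPM, complex III took 7.72% ± 0.51 in overexpressing cells and 3.92% ± 0.13 in wild-type cells, complex IV 45.2% ± 0.38 in overexpressing and 38.8% ± 0.71 in wild-type cells, complex I 28.05% ± 0.55 in overexpressing and 26.5% ± 0.68 in wild-type cells, and complex V 19.1% ± 0.65 in overexpressing and 30.8% ± 0.14 in wild-type cells (SD, n = 3 each). Complex V had the smaller part of the messenger pool in overexpressing cells and the other complexes the larger, without overlap (exact permutation p = 0.1 each, the smallest possible).

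Within complex I the differences ranged from a log2 fold change of -1.03 for ND2 to 0.076 for ND3. ND2 stood at 3162, 3055 and 3388 TPM in OTX2-overexpressing cells, against 6729, 6653 and 6202 TPM in wild-type cells. ND4L stood at 4247, 4443 and 4557 TPM in overexpressing cells, against 9058, 8806 and 8059 TPM in wild-type cells (log2 fold change -0.97, SE 0.044, adjusted p = 2.12e-08). ND4, which overlaps ND4L by 7 bases, differed less, with 4627, 4767 and 5077 TPM in overexpressing cells and 6874, 6309 and 5952 TPM in wild-type cells (log2 fold change -0.40, SE 0.053, adjusted p = 5.07e-05). The ratio of ND4L to ND4 was 0.918, 0.932 and 0.898 in overexpressing cells and 1.32, 1.396 and 1.35 in wild-type cells, so in both bicistronic pairs the first messenger was lower relative to the second, without overlap between the groups. The authors' deposited log2 fold changes are -1.096 for ND4L and -0.76 for ND4, a narrower gap in the same direction. ND6 stood at 2050.1, 2254 and 2597 TPM in overexpressing cells, against 4786, 3945 and 3977 TPM in wild-type cells (log2 fold change -0.88, SE 0.10, adjusted p = 8.37e-05). Its ratio to ND5, with which it shares 17 bases on opposite strands, was 0.633, 0.692 and 0.729 in overexpressing cells and 0.875, 0.774 and 0.873 in wild-type cells, without overlap. Whether the counting used strand is not stated, so reads from ND6 and from RNA of the other strand there cannot be told apart. ND5 (-0.59) and ND1 (-0.41) were also called lower on the log2 scale, and ND3 stood at 2886, 2662 and 2909 TPM in overexpressing cells and 2823, 2546 and 2653 TPM in wild-type cells, with overlap.

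The shorter rRNA stood at 74.5, 81.5 and 84.3 TPM in OTX2-overexpressing cells, against 194, 177 and 138 TPM in wild-type cells (log2 fold change -1.06, SE 0.11, adjusted p = 1.25e-05). The longer rRNA stood at 242, 291 and 279 TPM in overexpressing cells, against 206, 222 and 179 TPM in wild-type cells (log2 fold change 0.42, SE 0.088, adjusted p = 0.00138). The groups did not overlap on either, and the directions were opposite for these neighbouring genes. The longer rRNA lost its call under median-ratio scaling (limma adjusted p = 0.0714) and in the fit over 12 pEPSC libraries (adjusted p = 0.0810), as did COX1 under quantile normalization (adjusted p = 0.437) and ND4 in the fit over 12 libraries (adjusted p = 0.168). Among the tRNAs the 5 rows between ND2 and COX1 all rose, with the largest rise at MT:6272-6346 (log2 fold change 2.104, SE 0.15, adjusted p = 4.69e-07), although the libraries of the groups overlapped for the row at MT:6129-6196. These rows are near the floor. The row at MT:6272-6346 stood at 2.55, 2.94 and 3.22 TPM in wild type, and the authors' mean normalized counts of the 5 rows run from 7.82 to 17.3. The authors give MT:6129-6196 an adjusted p of 0.324 and call the others up. The rows called lower were those at MT:8891-8957, at MT:3845-3919 (-0.44) and the adjoining pair at MT:12737-12805 (-1.88) and MT:12806-12864 (-1.09), between ND4 and ND5, as log2 fold changes. From the tRNA at MT:15267-15335 through CYTB to the end of the coding region, 4 rows in a row were called higher. This run depends on the processing. In the authors' deposited table its log2 fold changes are -0.17, 0.026, 0.19 and 0.65 in that order. The authors' adjusted p are 0.391, 0.711, 0.342 and 0.0111.

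With each library scaled to the same mitochondrial total, 23 rows stood higher and 9 lower in OTX2-overexpressing cells, where 71.4% of all rows were called higher and 12.1% lower on that scale. Among the messengers, CYTB (0.93), ND3 (0.76), COX3 (0.68), ND4 (0.28) and ND1 (0.28) were higher in log2 fold change relative to that total. ATP8 (-1.88), ND2 (-0.35), ND4L (-0.29), COX2 (-0.24), ND6 (-0.20) and ATP6 (-0.17) were lower, and COX1 and ND5 were not called. The make-up of the captured mitochondrial pool therefore differed as well as its size, and ATP8 was lower on both scales. The authors' deposited table calls 5 mitochondrial rows up and 10 down, where 20.7% of all rows are called up and 16.8% down.

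**Figure D3:**
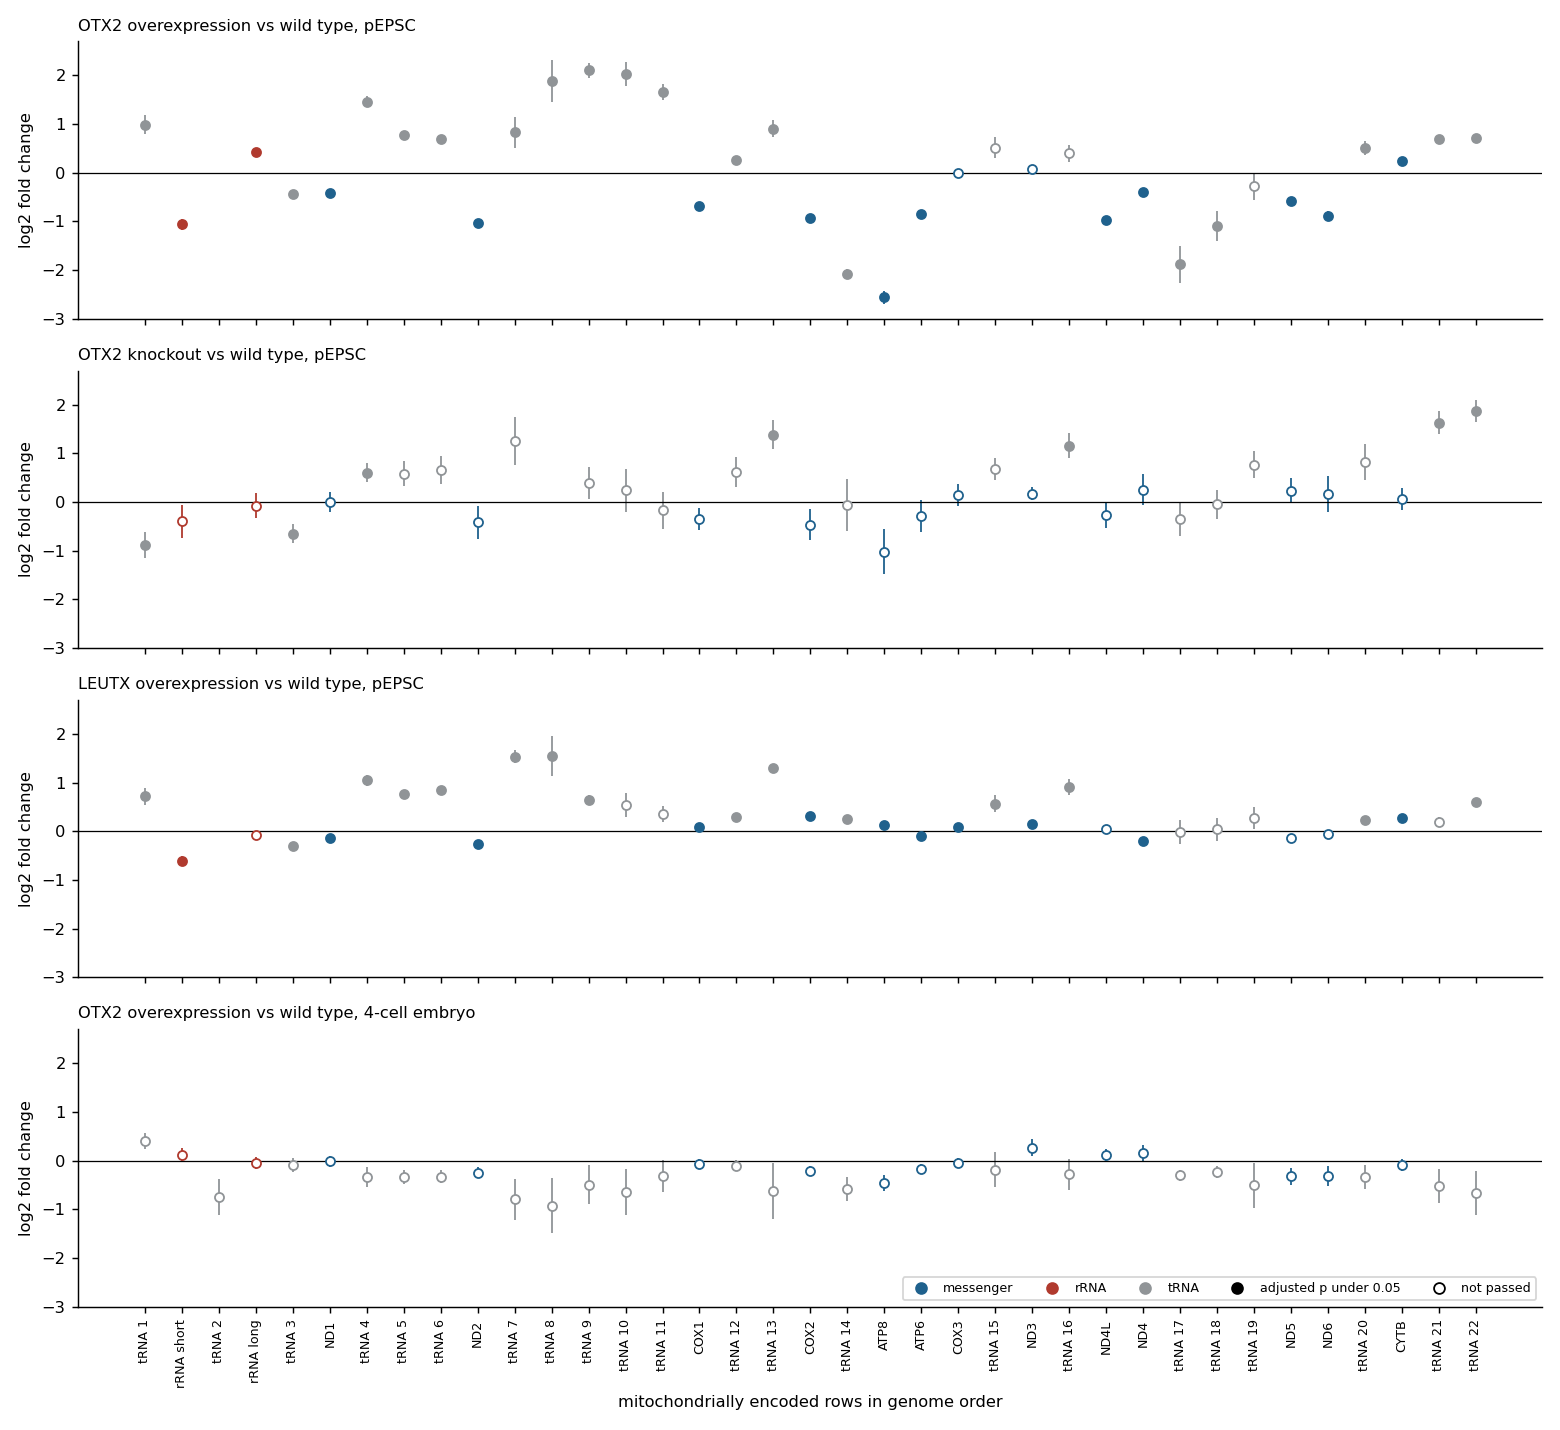
log2 fold change (y axis, limma on log2(TPM + 1)) of every mitochondrial row in genome order along the x axis, with a panel for each comparison; bars span ± 1 SE and filled points passed an adjusted p of 0.05. ATP8 stands at -2.56 with OTX2 overexpression in pEPSCs, and no embryo row passed.

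OTX2 knockout against wild type asks the reverse question, and its 3 libraries did not give a single answer. In knockout library 1 all 13 messengers lay above every wild-type library, from ATP8 at 1.15 times the wild-type mean to ND6 at 2.20 times. In knockout library 3, 10 of 13 messengers lay below every wild-type library, and in library 4, 12 of 13 did, with ATP8 lowest at 0.319 and 0.327 times the wild-type mean. Library 1 also differed over all listed rows. The median TPM was 13.3 in it, 18.7 and 18.8 in libraries 3 and 4, and 18.55, 17.9 and 19.7 in wild type. The share of all rows outside the wild-type range was not counted for single libraries. With all 3 libraries no messenger and no rRNA was called, also none at an unadjusted p under 0.05, and 5 tRNA rows were higher and 2 lower of 35 rows tested, where 14.9% of 12255 rows were called higher and 22.3% lower. All knockout libraries lay above all wild-type libraries for 11 rows and below for 2, all of them tRNAs, where 20.3% and 35.3% of all rows did so. The median log2 fold change was 0.17 over the mitochondrial rows and -0.11 over all rows.

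ATP8 stood at 23899.7, 6636 and 6802 TPM in knockout libraries 1, 3 and 4, against 21334, 21233 and 19785 TPM in wild-type cells (log2 fold change -1.02, SE 0.46, adjusted p = 0.125). ND6 stood at 9312, 3429 and 3322 TPM in the knockout libraries, against 4786, 3945 and 3977 TPM in wild-type cells (log2 fold change 0.17, SE 0.38, adjusted p = 0.752). ATP6 stood at 34246, 13954 and 14354 TPM in the knockout libraries, against 24170.0, 23309.7 and 21840.1 TPM in wild-type cells. In each case library 1 lay above all wild-type libraries and libraries 3 and 4 lay below them. COX2 stood at 24630.4, 10171 and 10997 TPM in the knockout libraries, against 19589, 19641 and 18719.7 TPM in wild-type cells, with the same split. COX3 stood at 27394, 14557 and 14961 TPM in the knockout libraries, against 16850.5, 16751 and 15593 TPM in wild-type cells, and CYTB at 8828, 4855 and 4615 TPM in the knockout libraries, against 5543, 5715 and 5447 TPM in wild-type cells. ND4 stood at 13499.5, 5957 and 5470.3 TPM in the knockout libraries, against 6874, 6309 and 5952 TPM in wild-type cells, and its log2 fold change of 0.26 was the highest of the messengers without passing the test. Libraries 3 and 4 lay below wild type in both of those, and in ND4 library 3 lay just inside the wild-type range. ND3 varied least, as it stood at 3743, 2669.7 and 2705 TPM in the knockout libraries and 2823, 2546 and 2653 TPM in wild-type cells, with libraries 3 and 4 inside the wild-type range. The shorter rRNA stood at 224, 104 and 88.1 TPM in the knockout libraries, against 194, 177 and 138 TPM in wild-type cells, and the longer at 294, 147 and 162 TPM in the knockout libraries, against 206, 222 and 179 TPM in wild-type cells. Both rRNAs showed the split of the messengers, with library 1 above and libraries 3 and 4 below every wild-type library.

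Some measures of make-up did put all 3 knockout libraries on one side. The ratio of ATP8 to ATP6 was 0.698, 0.476 and 0.474 in knockout libraries 1, 3 and 4, against 0.883, 0.911 and 0.906 in wild-type cells. The ratio of ND4L to ND4 was 0.824, 0.998 and 1.004 in the knockout libraries, against 1.32, 1.396 and 1.35 in wild-type cells. Both ratios lay below wild type without overlap (exact permutation p = 0.1, the smallest possible), as they also did in OTX2-overexpressing cells against the same wild-type libraries. The authors' deposited log2 fold changes in the knockout are -0.20 for ATP8 and -0.033 for ATP6, and 0.20 for ND4L and 0.50 for ND4. The gap within each pair is thus narrower there than in TPM, and none of these rows is called up or down. Complex V took 28.6%, 22.3% and 22.6% of messenger TPM in the knockout libraries, against 31%, 30.7% and 30.8% in wild-type cells, and library 1 was the nearest to wild type here, as in the ratio of ATP8 to ATP6, and the farthest from it in the ratio of ND4L to ND4. The ratio of ND6 to ND5 was 1.01, 0.694 and 0.731 in the knockout libraries and 0.875, 0.774 and 0.873 in wild-type cells, with overlap (exact permutation p = 0.8). The tRNA rows called higher were at MT:16550-16613 (1.87), MT:16482-16549 (1.63), MT:8135-8202 (1.38), MT:11000-11068 (1.16) and MT:4877-4945 (0.61), and those called lower at MT:1176-1245 (-0.88) and MT:3845-3919 (-0.65), as log2 fold changes. The row at MT:3845-3919 was also lower in OTX2- and LEUTX-overexpressing cells against the same wild-type libraries.

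Without knockout library 1, 10 messengers were called lower and none higher, and over all 35 rows 9 were higher and 15 lower, where 32.7% of all rows were called higher and 31.1% lower. The lower messengers were led by ATP8 (log2 fold change -1.63, SE 0.041, adjusted p = 7.95e-07), COX2 (-0.87), ND2 (-0.86), ATP6 (-0.71), COX1 (-0.63) and ND4L (-0.59), as log2 fold changes, and ND3, ND4 and ND5 did not pass. The direction of the messengers in the knockout therefore rested on whether library 1 was counted, and no label gives a reason to leave it out. Relative to the mitochondrial total, 3 rows were higher and none lower with all libraries, where 1.9% of all rows were called higher and 0.849% lower, and without library 1, 19 were higher and 7 lower, where 64.8% and 7.25% were. ATP8 had a log2 fold change of -1.06 relative to the mitochondrial total without library 1 and -0.82 with it, of which only the first passed the test. The authors' deposited table calls 8 mitochondrial rows up and none down in the knockout, where 7.02% of all its rows are up and 6.34% down, and gives ATP8 a log2 fold change of -0.20.

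**Figure D4:**
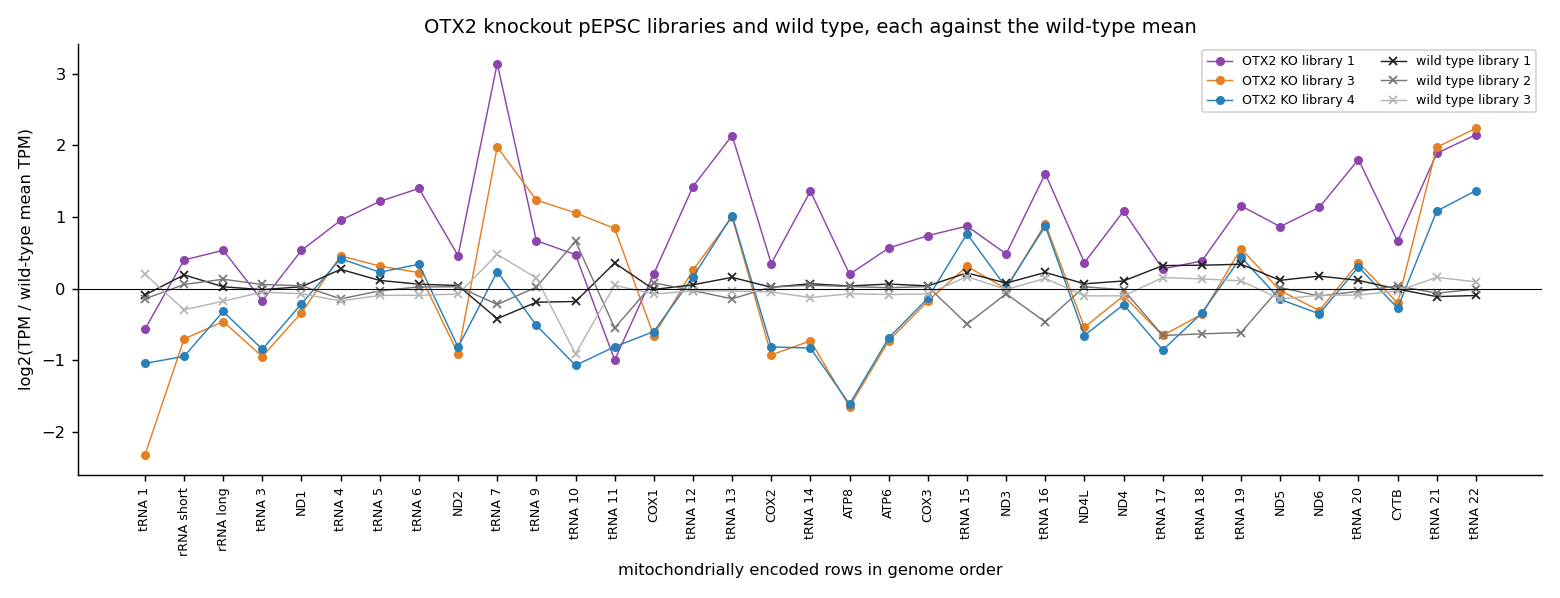
Ratio of each knockout and wild-type library to the wild-type mean (log2 axis), in genome order, for the mitochondrial rows above 0 TPM in every library. Each series is 1 library. Knockout library 1 lies above the wild-type mean for all 13 messengers, from 1.15 to 2.20 times. Among the messengers, knockout libraries 3 and 4 lie lowest at ATP8, at 0.319 and 0.327 times.

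LEUTX overexpression against wild type in pEPSCs gave small differences among the messengers in both directions. COX2 (0.32), CYTB (0.27), ND3 (0.16), ATP8 (0.13), COX1 (0.10) and COX3 (0.080) were higher, and ND2 (-0.26), ND4 (-0.20), ND1 (-0.13) and ATP6 (-0.092) lower, as log2 fold changes. The scale moves the smallest of these: COX1 and COX3 turned negative under median-ratio scaling, and COX1 also under quantile normalization. The shorter rRNA fell, 14 of 21 tRNA rows rose and 1 fell. In all, 20 of 36 rows were higher and 6 lower, where 41.6% of 12570 rows were called higher and 28.1% lower. All LEUTX libraries lay above all wild-type libraries for 20 rows and below for 5, where 43.2% and 30.3% of all rows did so. The median log2 fold change was 0.24 over the mitochondrial rows and 0.11 over all rows. A fit over all 12 pEPSC libraries, in which the spread of the knockout libraries enters, called 8 rows higher and 0 lower, none of them a messenger, so that all 10 messenger calls were lost in it. Median-ratio scaling left 2 messengers higher and 5 lower, and quantile normalization 3 and 2.

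COX2 stood at 24149, 23617 and 24388 TPM in LEUTX-overexpressing cells, against 19589, 19641 and 18719.7 TPM in wild-type cells (log2 fold change 0.32, SE 0.025, adjusted p = 5.27e-06). ATP8 stood at 22274, 22668 and 23067 TPM in LEUTX-overexpressing cells, against 21334, 21233 and 19785 TPM in wild-type cells, and ATP6 at 21768, 21365 and 21856 TPM in LEUTX-overexpressing cells, against 24170.0, 23309.7 and 21840.1 TPM in wild-type cells, where 1 LEUTX library lay inside the wild-type range. The ratio of ATP8 to ATP6 was thus 1.02, 1.06 and 1.06 in LEUTX-overexpressing cells and 0.883, 0.911 and 0.906 in wild-type cells, higher without overlap and so on the other side of wild type from OTX2-overexpressing and knockout cells. The ratio of ND4L to ND4 was 1.54, 1.601 and 1.68 in LEUTX-overexpressing cells and 1.32, 1.396 and 1.35 in wild-type cells, again higher without overlap (exact permutation p = 0.1 for both ratios, the smallest possible). CYTB stood at 6723, 6642 and 6735 TPM in LEUTX-overexpressing cells, against 5543, 5715 and 5447 TPM in wild-type cells, without overlap. ND2, the lowest of the messengers by fold change, stood at 5384, 5386 and 5573 TPM in LEUTX-overexpressing cells, against 6729, 6653 and 6202 TPM in wild-type cells. COX3 stood at 17402, 17138 and 17446 TPM in LEUTX-overexpressing cells, against 16850.5, 16751 and 15593 TPM in wild-type cells, and ND3 at 2968, 2914 and 3065 TPM in LEUTX-overexpressing cells, against 2823, 2546 and 2653 TPM in wild-type cells. ND6 stood at 4122, 4181 and 3819 TPM in LEUTX-overexpressing cells and 4786, 3945 and 3977 TPM in wild-type cells, and the groups overlapped (log2 fold change -0.063, SE 0.073, adjusted p = 0.459). ND4L stood at 8584, 8846 and 9172 TPM in LEUTX-overexpressing cells and 9058, 8806 and 8059 TPM in wild-type cells, and ND4 at 5576, 5527 and 5476 TPM in LEUTX-overexpressing cells, against 6874, 6309 and 5952 TPM in wild-type cells. ND4L overlapped between the groups while ND4 did not.

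The shorter rRNA stood at 107, 109.9 and 111 TPM in LEUTX-overexpressing cells, against 194, 177 and 138 TPM in wild-type cells (log2 fold change -0.62, SE 0.11, adjusted p = 0.000763). The longer rRNA stood at 190.2, 189.8 and 193 TPM in LEUTX-overexpressing cells and 206, 222 and 179 TPM in wild-type cells, and the groups overlapped (log2 fold change -0.079, SE 0.067, adjusted p = 0.314). The shorter rRNA was thus lower in OTX2- and LEUTX-overexpressing pEPSCs alike, measured against the same wild-type libraries. Among the tRNAs the largest rises were at MT:6203-6270 (1.54), MT:6129-6196 (1.53) and MT:8135-8202 (1.295), as log2 fold changes, the first of them for a row listed at 0, 0.109 and 2.29 TPM in wild-type libraries. The tRNA at MT:8891-8957, which was lower in OTX2-overexpressing cells, stood at 972, 973 and 991 TPM in LEUTX-overexpressing cells and 866, 852 and 757 TPM in wild-type cells (log2 fold change 0.25, SE 0.048, adjusted p = 0.00135). From COX1 to ATP8, 6 rows in a row were called higher. This run depends on the processing. Under median-ratio scaling COX1 had a log2 fold change of -0.015, and ATP8 lost its call (limma adjusted p = 0.844). In the authors' deposited table the log2 fold changes of the run go from -0.052 (ATP8) to 1.36 (MT:8135-8202). Relative to the mitochondrial total, 16 rows were higher and 8 lower, where 35.1% of all rows were called higher and 30.4% lower. The authors' deposited table calls 3 mitochondrial rows up and none down for LEUTX, where 10.6% of all its rows are up and 5.93% down, and gives ATP8 a log2 fold change of -0.052.

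OTX2 overexpression in 4-cell embryos asks whether excess OTX2 goes with a mitochondrial difference in the embryo itself. Most rows stood lower, 32 of 37 by the sign of the fold change, but none passed the test at an adjusted p of 0.05, where 21.5% of 8550 rows were called higher and 7.93% lower (limma, Benjamini-Hochberg over all rows). At an unadjusted p under 0.05 there were 7 rows, and for 7 rows every overexpressing library lay below every wild-type library and for 0 above, where 10.2% and 38.9% of all rows did so. The median log2 fold change was -0.30 over the mitochondrial rows, against 0.28 over all rows. Scaling by the median ratio of all rows called 10 mitochondrial rows lower, scaling to the rows that are not mitochondrially encoded 7 and quantile normalization 2, so the count depends on the scale, and ND1, COX1 and CYTB turned positive under quantile normalization. The share of all rows called was not counted under these scalings or at the unadjusted p, so these counts have no background beside them.

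ATP8 had the smallest adjusted p, as it stood at 31083, 22450.4 and 22966 TPM in OTX2-overexpressing embryos, against 30115, 37865 and 36345 TPM in wild-type embryos (log2 fold change -0.46, SE 0.16, adjusted p = 0.0601). ATP6 stood at 62841, 65909 and 69265 TPM in overexpressing embryos, against 76990.0, 72140.4 and 72689 TPM in wild-type embryos (log2 fold change -0.16, SE 0.10, adjusted p = 0.231). COX2 stood at 78846, 72091 and 73728 TPM in overexpressing embryos, against 82163, 89955 and 90182 TPM in wild-type embryos. In ATP6 and COX2 the groups did not overlap, and in ATP8 they did. The ratio of ATP8 to ATP6 was 0.495, 0.341 and 0.332 in overexpressing embryos and 0.391, 0.525 and 0.50 in wild-type embryos, with overlap (exact permutation p = 0.2). Complex V took 22.7%, 20.2% and 20.95% of messenger TPM in overexpressing embryos and 23.1%, 23.5% and 23.3% in wild-type embryos, and complex I 25.6%, 28.8% and 27.5% in overexpressing embryos and 25.5%, 24.8% and 24.4% in wild-type embryos. Neither overlapped between the groups (exact permutation p = 0.1, the smallest possible), with complex V the lower and complex I the higher in overexpressing embryos.

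ND4L stood at 45467, 60334 and 52176 TPM in OTX2-overexpressing embryos and 53287, 47945 and 44518 TPM in wild-type embryos, and ND4 at 16598, 22242 and 22267 TPM in overexpressing embryos and 21279, 17170.0 and 16086 TPM in wild-type embryos. For ND4L 1 overexpressing library lay above the wild-type range and for ND4 2 did, and the others lay within it. ND6 stood at 3865, 3762 and 4898 TPM in overexpressing embryos and 3873, 5541 and 6421 TPM in wild-type embryos (log2 fold change -0.32, SE 0.20, adjusted p = 0.243). ND3 stood at 7089, 6962 and 7394 TPM in overexpressing embryos and 4695, 5918 and 7610.1 TPM in wild-type embryos. COX3 stood at 41382, 47481 and 47002 TPM in overexpressing embryos and 47917, 46207 and 46226 TPM in wild-type embryos, and CYTB at 22767, 25386 and 27344 TPM in overexpressing embryos and 23787, 28281 and 28635 TPM in wild-type embryos. These 3 messengers overlapped between the groups. The shorter rRNA stood at 1209.5, 1032 and 995 TPM in overexpressing embryos and 1104, 894 and 978 TPM in wild-type embryos (log2 fold change 0.12, SE 0.14, adjusted p = 0.506), and the longer at 1535, 1363 and 1435 TPM in overexpressing embryos and 1665, 1480.0 and 1355 TPM in wild-type embryos (log2 fold change -0.051, SE 0.13, adjusted p = 0.776). The rRNAs overlapped as well, and their ratio did not part the groups.

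The tRNA rows differed between libraries of one group as well as between the groups. Of 22 tRNA rows, 5 lay below every wild-type library in overexpressing library 1, 17 in library 2 and 14 in library 3. The tRNA at MT:8891-8957 shows this, with 22869, 11878 and 12128 TPM in overexpressing embryos and 18786, 23624 and 24806 TPM in wild-type embryos (log2 fold change -0.58, SE 0.25, adjusted p = 0.108). The tRNA at MT:8135-8202 stood at 9916, 2138 and 3416 TPM in overexpressing embryos and 3342, 7480.2 and 10701 TPM in wild-type embryos, so that overexpressing library 1 was high beside libraries 2 and 3 and wild-type library 1 was low beside wild-type libraries 2 and 3. Without overexpressing library 1, 10 mitochondrial rows were called lower, and without wild-type library 1, 4 were. The share of all rows was not counted for these fits or for the single libraries above. Relative to the mitochondrial total 1 row was called, the tRNA at MT:1176-1245, before the shorter rRNA (log2 fold change 0.55, SE 0.17, adjusted p = 0.0295), where 38.2% of all rows were called higher and 7.39% lower on that scale. The authors' deposited table calls 22 of the 37 rows down and none up, where 16.6% of all its rows are down and 10.8% up, and gives ATP8 a log2 fold change of -0.58. Its calls in embryos start at log2 fold changes of 0.31 and -0.34, whereas in pEPSCs they start just past 1 and -1, so the deposited counts do not stand on one rule.

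**Figure D5:**
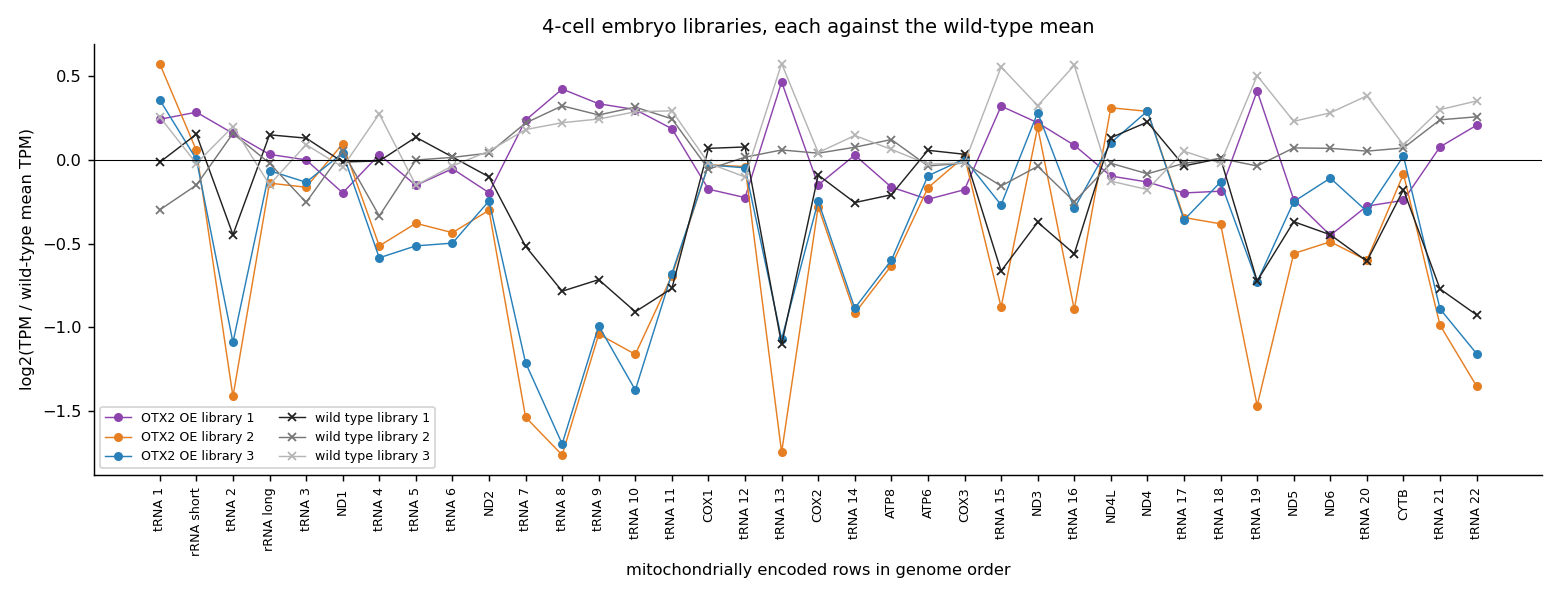
Ratio of each 4-cell embryo library to the wild-type mean (log2 axis) for every mitochondrial row in genome order. OTX2-overexpressing and wild-type libraries are drawn on the same axes. The tRNA rows spread most, with the lowest at 0.295 and 0.309 times the wild-type mean in overexpressing libraries 2 and 3.

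The 4-cell embryo effect of excess OTX2 was set against the pEPSC effect by the difference of the log2 fold changes. Levels were not compared directly, since the embryo and pEPSC libraries were made with different protocols. Of 36 rows in both tables, 12 had a higher fold change in embryos and 14 a lower one, where 44.7% of 7406 rows were called higher and 21.2% lower. ATP8 differed most among the messengers, with an embryo minus pEPSC difference of 2.103 (SE 0.21, adjusted p = 3.78e-06), and COX3 (-0.047), ND3 (0.19), ND5 (0.26) and ND6 (0.56) did not pass. The other messengers and both rRNAs passed and are given in the closing section.

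The nuclear genes that transcribe, maintain and process mitochondrial RNA were read beside these values. TFAM, which packs mitochondrial DNA and starts its transcription, stood at 35.8, 36.5 and 36.4 TPM in OTX2-overexpressing pEPSCs, 44.2, 75.8 and 77.4 TPM in knockout libraries 1, 3 and 4, 83.8, 86.8 and 95.1 TPM in LEUTX-overexpressing pEPSCs and 105, 109 and 109 TPM in wild-type pEPSCs, and at 20.4, 2.23 and 1.71 TPM in OTX2-overexpressing and 61.7, 115 and 166 TPM in wild-type embryos. It was called lower in all 4 comparisons, with log2 fold changes of -1.54 for OTX2 overexpression, -0.74 for the knockout, -0.28 for LEUTX overexpression and -4.22 in embryos, and knockout library 1, with the highest mitochondrial share of the pEPSC libraries, had the lowest TFAM of the knockout libraries. TFB2M, the other initiation factor, stood at 11.8, 13.1 and 12.8 TPM in OTX2-overexpressing pEPSCs and 23.3, 24.7 and 21.9 TPM in wild-type pEPSCs (log2 fold change -0.84, adjusted p = 4.45e-06), and at 0.319, 0.571 and 0.111 TPM in OTX2-overexpressing and 1.98, 1.58 and 4.405 TPM in wild-type embryos (log2 fold change -1.39, adjusted p = 0.0107). The overexpressing embryo values of TFB2M all lay below 1 TPM. In knockout libraries 1, 3 and 4 it stood at 18.8, 22.2 and 26.8 TPM, overlapping wild type. With LEUTX overexpression it stood at 22.3, 20.3 and 20.6 TPM, also with overlap. The polymerase POLRMT was higher with OTX2 overexpression in pEPSCs, at 47.3, 46.2 and 46.1 TPM, against 31.8, 31.3 and 40.4 TPM in wild-type cells (log2 fold change 0.43, adjusted p = 0.00160), so these factors did not move as one. POLRMT was also called higher with LEUTX overexpression (log2 fold change 0.34, limma adjusted p = 0.0123). In the knockout POLRMT was not called (log2 fold change 0.48, limma adjusted p = 0.142), and for embryos it was not listed. What part the nuclear factors had in the mitochondrial differences was not tested.

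Of the genes for mitochondrial DNA transcription and maintenance, 4 rose and 9 fell of 18 tested with OTX2 overexpression in pEPSCs (median log2 fold change -0.40, against 0.20 over all rows), 1 rose and 2 fell of 19 in the knockout (-0.011, against -0.11), 7 rose and 4 fell of 18 with LEUTX (0.13, against 0.11), and 2 rose and 2 fell of 13 in embryos (0.36, against 0.28). Over all rows, 48.9% were called higher and 33.5% lower with OTX2 overexpression in pEPSCs, 14.9% and 22.3% in the knockout, 41.6% and 28.1% with LEUTX, and 21.5% and 7.93% in embryos. Of the genes for processing and stability of mitochondrial RNA, 5 rose and 14 fell of 28 with OTX2 overexpression in pEPSCs (-0.29), 6 rose and 5 fell of 28 in the knockout (-0.035), 3 rose and 16 fell of 28 with LEUTX (-0.21), and 6 rose and 2 fell of 19 in embryos (0.22), against the same medians and shares over all rows. With OTX2 overexpression in pEPSCs the topoisomerase TOP1MT rose (2.13), and the nuclease MGME1 (-0.80), the RNA-granule protein GRSF1 (-1.66), FASTKD1 (-1.47), the RNA-degrading PNPT1 (-1.52) and the oligoribonuclease REXO2 (-1.56) fell, as log2 fold changes. In the knockout the messenger-stabilising LRPPRC (-0.54), FASTKD1 (-0.73) and the nucleotide reductase subunit RRM2B (-0.67) fell, and TOP1MT (0.45), TBRG4 (0.49) and FASTK (0.61) rose. With LEUTX, RRM2B (1.51), the terminator protein MTERF1 (0.68) and FASTK (0.77), which is known to keep up the ND6 messenger in human and mouse cells, rose, and FASTKD5 (-1.15), which acts on messenger ends not flanked by tRNAs, LRPPRC (-0.65), FASTKD1 (-0.78) and MGME1 (-0.32) fell. In embryos MGME1 (0.63), RNASEH1 (0.56), REXO2 (0.71), the rRNA methyltransferases TFB1M (0.80) and MRM2 (0.78) rose, and SLIRP (-1.45), the partner of LRPPRC, fell. Roles of these nuclear factors are known mostly from human and mouse cells.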

How the data were processed

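Expression was read from 4 deposited tables covering 18 libraries; 17 other samples of the series were not used, and no column of per-sample values was left unused. The authors deposited TPM per library, and beside it, per the file headers, their own mean normalized count (a signal value), log2 fold change with its standard error, test statistic (a score), p-value and adjusted p-value. Per the submitters' processing notes the genome build was Sscrofa11.1, and the tools included featureCounts 2.0.0, StringTie 2.1.4, DESeq2, STAR 2.7.3 and Trim Galore 0.6.6; which tool made which column, and whether counting used strand, is not given in the sources used here. Rows with low values had been left out by the authors, going by the name of the deposited tables.

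Knockout columns numbered 1, 3 and 4 were mapped to the knockout group. Shares were computed per library. For each table limma 3.58.1 (R 4.3.3, with trend and robust moderation) was fitted to log2(TPM + 1) on rows with at least 1 TPM in at least 3 of 6 libraries, with Benjamini-Hochberg adjustment over all rows and a call at 0.05. All listed mitochondrial rows passed that filter. A second fit scaled each library to the same mitochondrial total, and the difference of the OTX2 effects was an interaction term. Fold changes on this scale understate those of low rows. The fits were tested on simulated data. Shares and ratios were compared by exact two-sided permutation over libraries (scipy 1.17.1). TPM gives no depth, so no counting intervals are given.

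The members and gene lists were chosen with earlier results of these data known. Named were all mitochondrial rows, with values per library for both rRNAs, ND6, the most abundant messenger of each complex and the messengers and rRNAs with the largest fold change in either direction, and in the 2 nuclear lists up to 4 called genes a comparison with the smallest adjusted p; COX1, ND2 and POLRMT were added after their values were seen. Alternatives were another pseudocount (0.1), no filter, 3 other scalings, a joint fit over 12 pEPSC libraries, the replicate number as a block, and leaving out each library.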

Additional observations from a re-analysis of the deposited data

Results flagged for a closer look

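The effect of OTX2 overexpression differed between 4-cell embryos and pEPSCs for 9 of the 13 messengers and both rRNAs, by limma's interaction term with adjustment over 7406 rows, of which 44.7% were called higher and 21.2% lower, so a share of calls like that of the messengers is found over all rows. The values are the embryo log2 fold change minus the pEPSC log2 fold change. The 8 messengers with a positive difference were ATP8 at 2.103, ND4L at 1.08, ND2 at 0.78, COX2 at 0.70, ATP6 at 0.69, COX1 at 0.60, ND4 at 0.56 and ND1 at 0.39. CYTB had a negative difference of -0.34. The shorter rRNA had a positive difference of 1.18 and the longer a negative one of -0.47. The embryo and pEPSC libraries were made with different protocols, and the part of the protocols in the differences cannot be told apart from that of the cells. A positive difference does not mean a rise in embryos: no member passed the test within the embryo comparison.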

How the results depend on the processing

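With OTX2 overexpression in pEPSCs 16 rows were higher and 15 lower, and no alternative moved these totals by over 1.5 times. Among messengers, the CYTB call was lost under median-ratio scaling and in the fit over 12 libraries, where 0 messengers were higher, and quantile normalization called 2 higher, COX3 among them (adjusted p = 7.55e-10). Median-ratio scaling called COX3 lower (-0.20, adjusted p = 0.0390). The turned signs were of messengers not called on the TPM as deposited: ND3 at -0.12 under median-ratio scaling, -0.068 under quantile normalization and -0.017 under scaling to rows that are not mitochondrially encoded, and COX3 at 0.59 under quantile normalization (log2 fold changes throughout). Median-ratio scaling turned ND1 (0.11) and the longer rRNA (0.042) in the knockout, ND4L (-0.071), COX1 (-0.015) and COX3 (-0.029) with LEUTX, and ND3 (-0.043), ND4 (-0.14), ND4L (-0.20) and the shorter rRNA (-0.18) in embryos. Quantile normalization turned ND5 (-0.014), ND6 (-0.16) and CYTB (-0.16) in the knockout, ND5 (0.039), ND6 (0.054) and COX1 (-0.017) with LEUTX, and ND1 (0.34), CYTB (0.18) and COX1 (0.045) in embryos. Scaling to the other rows turned ND4 (-0.0042), ND4L (-0.055) and the shorter rRNA (-0.044) in embryos. These scalings move the median log2 fold change of all rows, which was 0.20 with OTX2 overexpression in pEPSCs and 0.28 in embryos, and under median-ratio scaling 0.023 in both. In the knockout 11 rows were higher in a fit over 12 libraries, and the 2 lower became 1 with a pseudocount of 0.1, 0 under median-ratio scaling and 1 under scaling to the other rows. With LEUTX the fit over 12 libraries gave 8 higher and 0 lower. In embryos 10 rows were lower under median-ratio scaling, 2 under quantile normalization and 7 under scaling to the other rows, and the cause of these moves was not tested. Shares of all rows called were counted for the main fits and for the knockout without library 1, not for the other alternatives.

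Leaving out each library in turn, the knockout counts ranged from 3 to 9 higher and 0 to 15 lower, and relative to the mitochondrial total from 0 to 19 higher and 0 to 7 lower, all the upper ends without knockout library 1. The 2 rows lower became 0 without any single other library, and the 5 higher became 3 without wild-type library 2. Relative to the mitochondrial total the 3 higher became 1 without knockout library 4 and 0 without knockout library 3 or any wild-type library. The knockout difference in mitochondrial share ranged from -4.98 to 1.11 percentage points, positive without library 3 or 4. Knockout log2 fold changes ranged from -0.27 to 0.16 for ND1, -0.16 to 0.49 for ND4, -0.085 to 0.42 for ND5, -0.32 to 0.42 for ND6, -0.23 to 0.23 for CYTB, -0.15 to 0.30 for COX3 and -0.38 to 0.11 for the longer rRNA. Signs also turned for COX3 with OTX2 overexpression in pEPSCs (-0.048 to 0.047), ND4L (-0.011 to 0.073) and ND6 (-0.11 to 0.028) with LEUTX, and ND1 (-0.076 to 0.070), COX3 (-0.085 to 0.014) and the longer rRNA (-0.12 to 0.027) in embryos. Embryo rows called lower ranged from 0 to 10, with 10 without overexpressing library 1 and 4 without wild-type library 1, and relative to the mitochondrial total from 0 to 2 higher, with 2 without wild-type library 3 and 0 without wild-type library 2 or overexpressing library 2 or 3, and from 0 to 8 lower, with 8 without overexpressing library 1 and 1 without wild-type library 1. For the embryo minus pEPSC difference, whose alternatives were chosen after seeing the data, 8 to 15 rows were lower, with 8 without overexpressing embryo library 2, and COX3 ranged from -0.10 to 0.017.

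Replicate numbers did not pair the samples: the correlations of same-numbered libraries lay between -0.21 and 0.065. With the replicate number as a block, OTX2 overexpression in pEPSCs gave 17 rows higher and 13 lower, LEUTX overexpression 19 and 6, and embryos 0 and 0, and 0 relative to the mitochondrial total. No paired analysis was possible for the knockout because its columns are numbered 1, 3 and 4 and its samples in the labels 1, 2 and 3, so no column could be matched to a labelled number. TPM keeps no depth, so what depth limits cannot be given.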
